A study of Mus musculus with 3 samples.

Results

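The miR-23, miR-27 and miR-24 family is made from a pair of gene clusters in the mouse, and 10 of its mature miRNAs were followed here among the 1138 mature miRNAs listed in each file. The members are given by name, with no threshold on their values, and all 10 were listed in the 3 libraries. The a cluster gives mmu-miR-23a-3p, mmu-miR-23a-5p, mmu-miR-27a-3p, mmu-miR-27a-5p and mmu-miR-24-2-5p. The b cluster gives mmu-miR-23b-3p, mmu-miR-27b-3p, mmu-miR-27b-5p and mmu-miR-24-1-5p, whereas mmu-miR-24-3p is made from both. The species prefix mmu is left out of most names hereafter. Small RNAs of the tibialis anterior (TA), a leg muscle that lifts the foot, were sequenced from wildtype C57BL/6 mice with a labelled age of 10 weeks. The day 0 library served as the reference, and the other libraries came from days 1 and 3 post-CTX injury. CTX is cardiotoxin, a venom component that kills myofibers and is widely used to start muscle regeneration. The labels name saline as the control injection but do not say whether the day 0 muscles received it. Each library was made from 4 pooled samples, so a time point is 1 library without replicates, and the 95% intervals cover counting error only. They may be too narrow even for that, since PCR copies are not independent molecules. A difference between pools of mice or library preparations cannot be told apart from a difference between days.

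A miRNA hairpin is cut by Drosha and Dicer into a 5p and a 3p arm, and usually one arm is loaded into Argonaute and kept while the other is degraded. The seed, bases 2 to 8 of the mature miRNA, largely decides which mRNAs are repressed. In skeletal muscle, miR-27 is known to repress Pax3 in satellite cells and myostatin, miR-23a is known to repress the atrophy-linked ubiquitin ligases atrogin-1 and MuRF1, and miR-24 is known to promote myogenic differentiation. The clusters are also known for their expression in endothelial cells and for roles in angiogenesis.

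The members come from hairpins on chromosomes 8 and 13 of GRCm38.p6, all on the plus strand. The a cluster spans 404 bases at chr8:84208518-84208921, with Mir23a at chr8:84208518-84208592, Mir27a at chr8:84208672-84208758 and Mir24-2 at chr8:84208815-84208921. In the GENCODE M21 annotation, Mir23a and Mir27a overlap no other gene, and the last 2 bases of Mir24-2 overlap an exon of the long noncoding RNA Gm26532. The b cluster spans 792 bases at chr13:63300484-63301275, with Mir23b at chr13:63300484-63300557, Mir27b at chr13:63300712-63300784 and Mir24-1 at chr13:63301208-63301275. It lies inside the protein-coding gene 2010111I01Rik on the same strand, with Mir23b in an intron and Mir27b and Mir24-1 within annotated exons of that gene, and it also lies in an intron of Fancc on the opposite strand.

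The mature sequences of 9 of the 10 members were found in RefSeq (GRCm38.p6) and are shown to make clear which reads can tell the clusters apart. They run from 5′ to 3′ with the seed in capitals, the 3p arms first. The remaining member is miR-23b-3p.
miR-23a-3p: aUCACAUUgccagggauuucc
miR-27a-3p: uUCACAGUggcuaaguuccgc
miR-27b-3p: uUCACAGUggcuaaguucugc
miR-24-3p: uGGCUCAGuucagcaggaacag
miR-23a-5p: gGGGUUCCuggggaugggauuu
miR-27a-5p: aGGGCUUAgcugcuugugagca
miR-27b-5p: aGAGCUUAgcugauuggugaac
miR-24-2-5p: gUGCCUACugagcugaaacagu
miR-24-1-5p: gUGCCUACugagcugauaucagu

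The 3p arms of miR-27a and miR-27b share their seed and differ by 1 substitution, C19U, counted from the 5′ end with the base of miR-27a first. The seeds of miR-23a-3p and miR-27a-3p differ by U7G. miR-24-3p has the same sequence from Mir24-1 and Mir24-2, so its reads cannot be assigned to a cluster. The 5p arms of miR-27a and miR-27b lie 5 edits apart, including the seed change G3A, and the 5p arms of miR-24-2 and miR-24-1 share their first 16 bases and lie 2 edits apart. The handling of reads that match more than 1 near-identical miRNA is not given in the sources used here, so the split of reads between miR-27a-3p and miR-27b-3p is less certain than that between their 5p arms. How many bases separate miR-23a-3p from miR-23b-3p was not examined here, and the same limit may apply to the miR-23-3p ratio.

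The libraries of days 0, 1 and 3 held 8507580, 6421056 and 9795076 reads, and a level of 3 reads, taken as the lowest detectable, corresponded to 0.306 to 0.467 CPM (reads per 1000000 reads of the library). The muscle miRNAs miR-1a-3p and miR-133a-3p were abundant in every library, at 73841 CPM or more and 7340 CPM or more. A CPM value is a share, and the shares of most miRNAs were higher after injury. Among the 393 miRNAs with at least 10 reads on both day 0 and day 1, the median log2 change was 0.90, and among 407 miRNAs it was 0.93 on day 3. Scaling with edgeR's TMM factors shifted all log2 changes by -0.94 on day 1 and -0.93 on day 3, and DESeq2's median-of-ratios factors shifted them by -1.04 and -1.12. Changes of the members against day 0 are therefore given from the library totals and also relative to the median of all miRNAs. Ratios within a library, which no scaling alters, carry the comparison of the clusters.

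From library totals, the 3p arms of the a cluster were markedly more abundant on day 1 than on day 0 and came back part of the way on day 3. The reads of mmu-miR-23a-3p numbered 31733, 118928 and 96294 on days 0, 1 and 3. Scaled to the library, mmu-miR-23a-3p stood at 3730 CPM on day 0 (3689 to 3771) and at 18522 CPM on day 1 (18418 to 18626), and it was still at 9831 CPM on day 3 (9769 to 9893). It was thus 4.97-fold higher on day 1 and 2.64-fold higher on day 3 than on day 0, and none of the intervals overlapped. The log2 change of miR-23a-3p on day 1 was 2.31 (2.29 to 2.33), which was 1.41 above the median of all miRNAs, and 75 of the 393 miRNAs had a larger one. On day 3 the log2 change was 1.40, 0.47 above the median, and it was 0.28 with median-of-ratios factors. In the deposited expression values, compared without division by a total so that library depth enters, the log2 change of miR-23a-3p was 1.44 on day 1 and 1.24 on day 3. Once those values were divided by their total it was 1.21 and 0.72. From day 1 to day 3 it was -0.91 from library totals, -0.20 in the deposited values and -0.49 after their division by the total, so the return was smaller there.

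miR-27a-3p, the a cluster form of the miRNA known to repress Pax3, had the same order of days in CPM. Its reads numbered 38631, 85897 and 59305 on days 0, 1 and 3. Levels of mmu-miR-27a-3p went from 4541 CPM (4496 to 4586) to 13377 CPM on day 1 (13289 to 13467), and on day 3 they were 6055 CPM (6006 to 6103). The log2 change was 1.56 on day 1 (1.54 to 1.58), 0.66 above the median of all miRNAs, so that day 1 stood 2.95-fold above day 0. On day 3 the log2 change of miR-27a-3p was 0.42 from library totals but -0.52 relative to the median of all miRNAs. With TMM factors this value was -0.51, and under median-of-ratios scaling it was -0.70, so the direction on day 3 depends on the scaling. miR-27a-3p was 2.21-fold lower on day 3 than on day 1, a log2 change of -1.14, and the other scalings of the reads gave -1.04 to -1.22. In the deposited expression values the log2 change was -0.40, and it was -0.69 once those values were divided by their total, so it did not pass 2-fold there.

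From library totals, the 3p arms of the b cluster differed less from day 0 than those of the a cluster, and far less on day 1. The reads of mmu-miR-23b-3p numbered 48039, 49218 and 71018, which gave 5647 CPM (5596 to 5697), 7665 CPM (7598 to 7733) and 7250 CPM (7197 to 7304) on days 0, 1 and 3. Those of mmu-miR-27b-3p numbered 22472, 24254 and 33885, which gave 2641 CPM (2607 to 2676), 3777 CPM (3730 to 3825) and 3459 CPM (3423 to 3496). Both were highest on day 1 in CPM, but neither reached 2-fold. The log2 changes of miR-23b-3p were 0.44 on day 1 and 0.36 on day 3, and those of miR-27b-3p were 0.52 and 0.39. Relative to the median of all miRNAs these log2 changes were -0.57 to -0.39, and they were also negative under TMM scaling, under median-of-ratios scaling and after the 10 most abundant miRNAs were taken out of the totals. Whether the b cluster 3p arms were higher or lower after injury therefore cannot be stated from these libraries without choosing a scaling. The size of their changes beside the a cluster also depends on it. With median-of-ratios factors, miR-23b-3p (-0.60) and miR-27b-3p (-0.53) changed about as far on day 1 as miR-27a-3p (0.52), but less than miR-23a-3p (1.27). With TMM factors on day 3 they had -0.57 and -0.54, beside 0.47 for miR-23a-3p and -0.51 for miR-27a-3p.

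miR-24-3p, which pools the output of both loci, had log2 changes that lay between those of miR-27a-3p and miR-23a-3p on both days. mmu-miR-24-3p had 40936, 102180 and 99281 reads on days 0, 1 and 3, at levels of 4812 CPM (4765 to 4858), 15913 CPM (15817 to 16010) and 10136 CPM (10073 to 10199). The log2 change was 1.73 on day 1, 0.82 above the median of all miRNAs. With TMM factors it was 0.78 and with median-of-ratios factors 0.68, so it did not pass 2-fold under these scalings. On day 3 it was 1.07, which was 0.14 above the median and -0.04 with median-of-ratios factors.

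The order of the 5 abundant 3p arms changed from library to library. On day 0 it was miR-23b-3p, miR-24-3p, miR-27a-3p, miR-23a-3p and miR-27b-3p, and on day 1 it was miR-23a-3p, miR-24-3p, miR-27a-3p, miR-23b-3p and miR-27b-3p. On day 3 miR-24-3p led, followed by miR-23a-3p, miR-23b-3p, miR-27a-3p and miR-27b-3p. The intervals of neighbours in these orders did not overlap in any library. These are shares of reads of miRNAs of nearly the same length, and ligation of adapters can favour some sequences. By rank among all miRNAs, miR-23a-3p moved from 30 on day 0 to 13 on day 1 and 22 on day 3, and miR-23b-3p from 21 to 27 and 25. miR-24-3p held ranks 25, 16 and 20 on days 0, 1 and 3, and the 10 members together took 2.16%, 6.01% and 3.74% of all reads on the respective days.

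**Figure D1:**
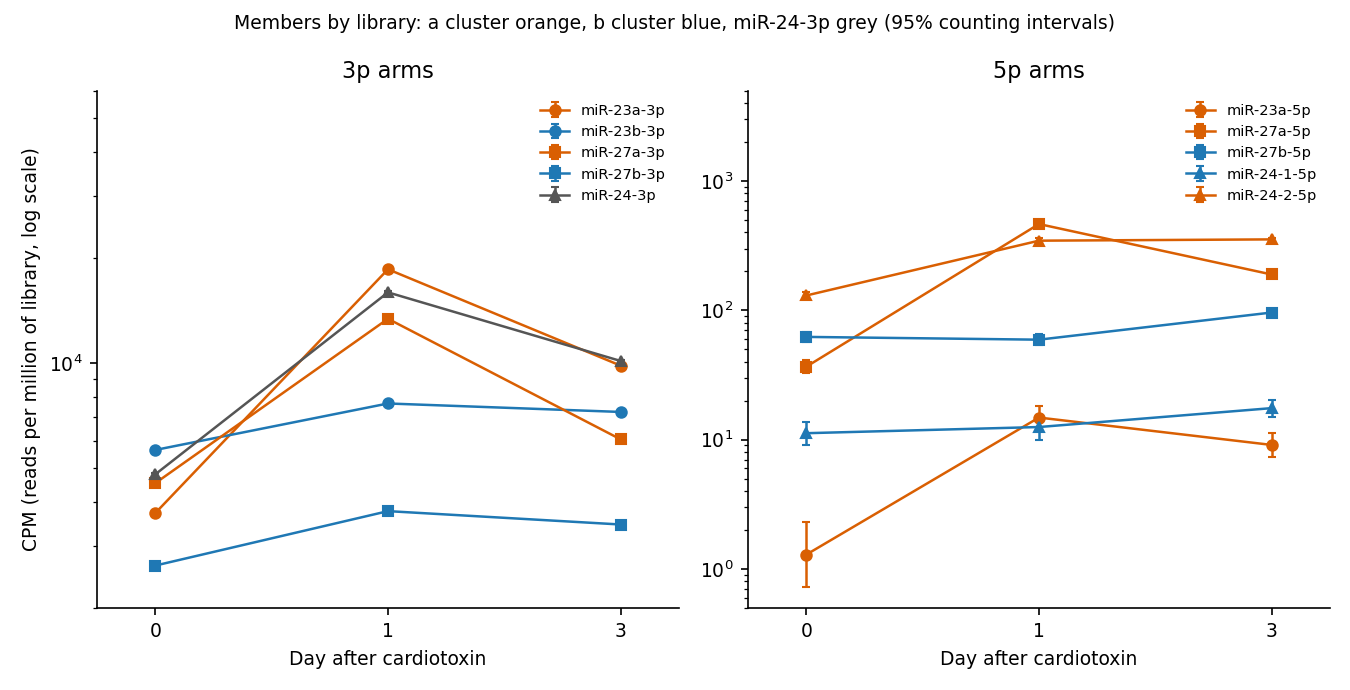
CPM of each member (log axis) in the library of each day, 3p arms on the left and 5p arms on the right, with the a cluster in orange, the b cluster in blue and miR-24-3p in grey. Points are single libraries and bars are 95% counting intervals. The a cluster 3p arms climb above the b cluster 3p arms on day 1, where miR-23a-3p reaches 18522 CPM and miR-23b-3p 7665 CPM.

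The 5p arms were scarcer than the 3p arms, and among them the ratio of miR-27a-5p to miR-27b-5p differed most between days. mmu-miR-27a-5p had 311, 2977 and 1853 reads on days 0, 1 and 3, which gave 36.6 CPM (32.7 to 40.9), 464 CPM (447 to 481) and 189 CPM (181 to 198). Of the 10 members it had the highest log2 change on day 1, 3.66 (3.50 to 3.83), and 25 of the 393 miRNAs had a larger one. On day 3 its log2 change was 2.37 (2.20 to 2.54). Relative to the median of all miRNAs, the log2 changes of miR-27a-5p were 2.76 on day 1 and 1.44 on day 3. The a cluster arm mmu-miR-23a-5p went from 11 reads to 95 and 89, or from 1.29 CPM (0.722 to 2.32) to 14.8 CPM (12.1 to 18.1) and 9.09 CPM (7.38 to 11.2). With 11 reads on day 0, the log2 change of miR-23a-5p on day 1 had a wide interval, 3.52 (2.62 to 4.42), and on day 3 it was 2.81 (1.91 to 3.72). Relative to the median these were 2.61 and 1.88. Both arms stayed more than 2-fold higher on both days under each of the library scalings tried.

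The b cluster counterpart mmu-miR-27b-5p had 529, 380 and 940 reads. Expressed per library these were 62.2 CPM (57.1 to 67.7), 59.2 CPM (53.5 to 65.4) and 96.0 CPM (90.0 to 102), so days 0 and 1 overlapped and day 3 stood apart. Against day 1, the log2 change on day 3 was 0.70 (0.53 to 0.87), and it was 0.62 to 0.81 under the other scalings of the reads. While miR-27a-5p was 2.45-fold lower on day 3 than on day 1, miR-27b-5p was 1.62-fold higher. In the deposited expression values the log2 change from day 1 to day 3 was -0.68 for miR-27a-5p, which no longer passed 2-fold, and 1.29 for miR-27b-5p, which then did. After division by their total these were -0.97 and 1.00.

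The 5p arms of miR-24 separate the clusters where miR-24-3p cannot. mmu-miR-24-2-5p of the a cluster had 1107, 2215 and 3454 reads, or 130 CPM (123 to 138), 345 CPM (331 to 360) and 353 CPM (341 to 365), so it was higher on both days than on day 0 and the intervals of days 1 and 3 overlapped. mmu-miR-24-1-5p of the b cluster had 95, 80 and 171 reads, or 11.2 CPM (9.14 to 13.6), 12.5 CPM (10.0 to 15.5) and 17.5 CPM (15.0 to 20.3). The intervals of miR-24-1-5p overlapped between days 0 and 1 and between days 1 and 3, but not between days 0 and 3. The log2 change of miR-24-2-5p was 1.41 on day 1 and 1.44 on day 3. Relative to the median of all miRNAs these were 0.50 and 0.51, and with TMM factors they were 0.46 and 0.51, so miR-24-2-5p was past 2-fold from library totals but not with TMM factors. The log2 change of miR-24-1-5p was 0.16 (-0.27 to 0.59) and 0.64 (0.28 to 1.01), and with TMM factors it was -0.79 and -0.28. Relative to the median it was -0.75 and -0.29.

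Counted with a threshold of 2-fold, 6 of the 10 members were higher on day 1 than on day 0 and 0 were lower. Of the 532 miRNAs with at least 10 reads in at least 1 of these libraries, 55.3% were at least 2-fold higher and 12.0% at least 2-fold lower, so the share of members past 2-fold was close to that of all miRNAs. The 6 were the 5 members of the a cluster and miR-24-3p. On day 3, 5 members were at least 2-fold higher, against 58.5% of 569 miRNAs, and 0 were lower, against 10.0%. miR-27a-3p was the member of the a cluster that no longer passed. Between day 1 and day 3, 0 members were at least 2-fold higher, against 25.0% of 583 miRNAs, and miR-27a-3p and miR-27a-5p were at least 2-fold lower, against 17.7%. In the deposited expression values, compared without division by a total so that library depth enters, 2 members were at least 2-fold higher and 0 lower. After division by their total, 1 was higher and 0 were lower. From library totals, the median log2 change of the members was 1.48 on day 1 and 0.86 on day 3, beside 0.90 and 0.93 for all miRNAs. With TMM factors, 3 members were at least 2-fold higher on day 1, against 35.2% of all miRNAs, and 1 was lower, against 24.2%. Median-of-ratios factors gave the same counts of members, against 33.1% and 25.9%. Without the 10 most abundant miRNAs, 4 members were at least 2-fold higher on day 1, against 42.7%. On day 3 each of these 3 scalings left the 5p arms of miR-23a and miR-27a past 2-fold, against 39.4% of all miRNAs with TMM factors, 35.1% under median-of-ratios scaling and 49.7% without the 10 most abundant.

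The 9 members assigned to a cluster were separated by their log2 changes on day 1 but not on day 3. On day 1 the lowest log2 change of the a cluster, 1.41 for miR-24-2-5p, lay above the highest of the b cluster, 0.52 for miR-27b-3p. The gap does not hold for every product of the b locus, because miR-23b-5p, which is not among the members, was 2.49-fold higher on day 1, a log2 change of 1.32 (0.89 to 1.74) whose interval overlaps that of miR-24-2-5p (1.30 to 1.51). On day 3 the ranges met, since miR-27a-3p at 0.42 lay below miR-27b-5p at 0.63 and miR-24-1-5p at 0.64. Members of a cluster share a primary transcript and are not independent.

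**Figure D2:**
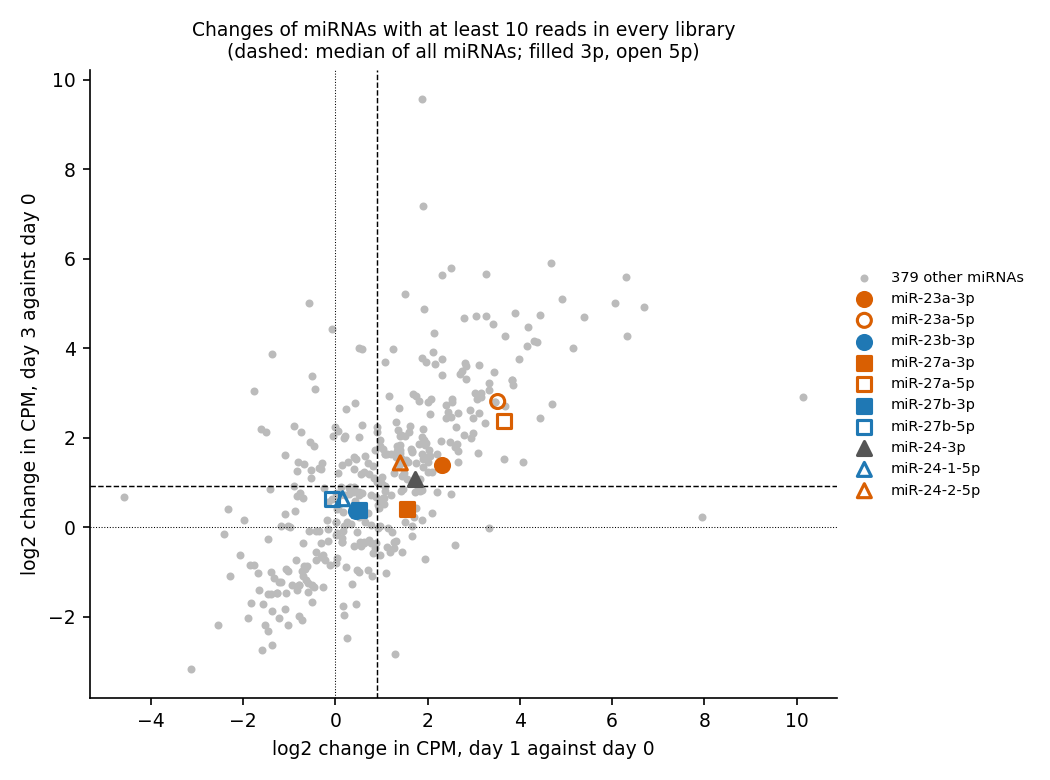
Log2 change in CPM on day 1 (horizontal) and day 3 (vertical) against day 0 for the 389 miRNAs with at least 10 reads in every library, with the members coloured by cluster (orange a, blue b, grey miR-24-3p), filled for 3p and open for 5p. Dashed lines mark the medians of 0.90 and 0.93 of all miRNAs with at least 10 reads on the days compared. The b cluster members lie left of the vertical dashed line and the a cluster members right of it.

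The a to b ratio within a library compares the clusters free of scaling, and the ratio of each pair that could be formed was highest on day 1. For the 3p arms of miR-23, the ratio of a to b reads was 0.661 (0.651 to 0.670) on day 0, 2.42 (2.39 to 2.44) on day 1 and 1.36 (1.34 to 1.37) on day 3. The b cluster thus gave most miR-23-3p reads on day 0, when 39.8% came from miR-23a-3p, and the a cluster gave most of them on day 1 (70.7%) and day 3 (57.6%). The ratio was 3.66-fold higher on day 1 than on day 0 (3.59 to 3.72) and 2.05-fold higher on day 3 (2.02 to 2.09).

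For the 3p arms of miR-27, which bear the same seed, the a cluster gave most reads on each day. The ratio was 1.72 (1.69 to 1.75), 3.54 (3.49 to 3.59) and 1.75 (1.73 to 1.77) on days 0, 1 and 3. It was 2.06-fold higher on day 1 than on day 0 (2.02 to 2.11), whereas the ratio on day 3 was 1.02 times that on day 0 (0.997 to 1.04), an interval that includes 1. The miR-27-3p ratio was back at its day 0 value on day 3 within counting error, and the miR-23-3p ratio was not.

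The 5p arms gave the same order of days, with a larger shift than the 3p arms for miR-27 and a smaller one for miR-24 than for miR-23-3p. The ratio of miR-27a-5p to miR-27b-5p was 0.588 (0.511 to 0.676), 7.83 (7.04 to 8.72) and 1.97 (1.82 to 2.13), so it was 13.3-fold higher on day 1 than on day 0 (11.2 to 15.9). The ratio of miR-24-2-5p to miR-24-1-5p was 11.7 (9.45 to 14.4), 27.7 (22.2 to 34.6) and 20.2 (17.3 to 23.6). Its rise from day 0 to day 1 was 2.38-fold (1.75 to 3.23), and the log2 difference between days 3 and 1 was -0.45 (-0.85 to -0.06). In sum, the a cluster members that can be told apart took 8439, 32722 and 16436 CPM on days 0, 1 and 3, and those of the b cluster took 8361, 11514 and 10823 CPM. The summed ratio of a to b reads was 1.01 (0.999 to 1.02), 2.84 (2.82 to 2.87) and 1.52 (1.51 to 1.53).

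**Figure D3:**
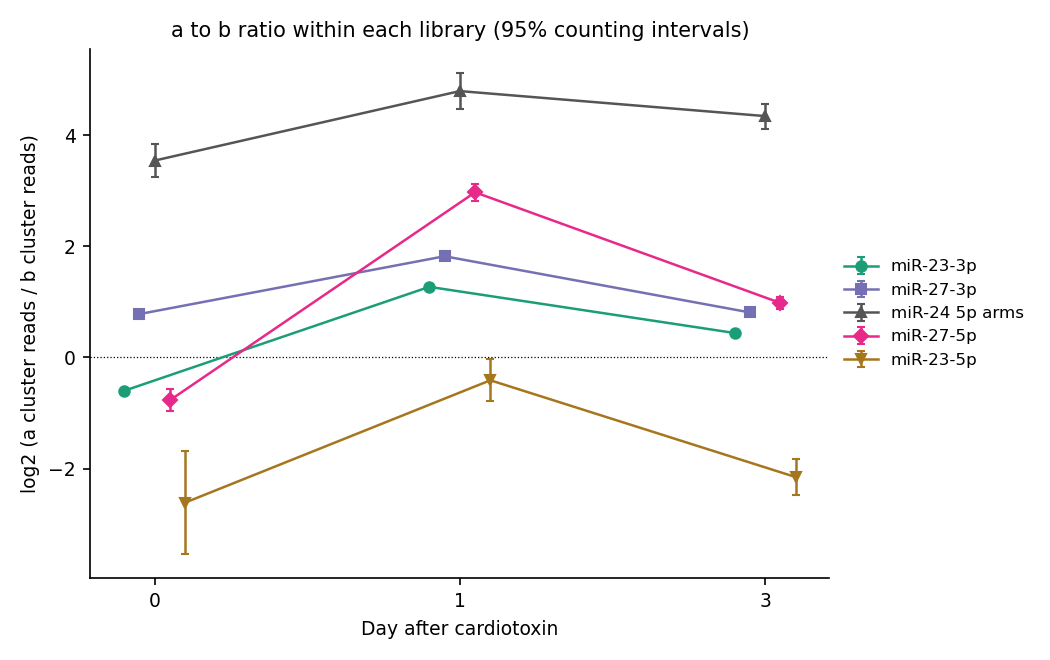
Log2 ratio of a cluster to b cluster reads within the library of each day for the pairs of arms, with 95% counting intervals; the dotted line marks equal reads. All pairs peak on day 1, and the miR-23-3p and miR-27-5p ratios cross from below to above equality between days 0 and 1.

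The same ratio was taken for all 22 pairs of names that differ by the letters a and b and had at least 50 reads under both names in every library, to show how often such ratios differ between these libraries. miR-199-3p and miR-486-5p had the same reads under both names in each library, so their ratios could not differ. The 22 pairs include the 3 member pairs miR-23-3p, miR-27-3p and miR-27-5p, so each of these was set against the other 19. The 19 still hold miR-199-3p and miR-486-5p, which lowers the shares and the median given here for them. From day 0 to day 1 the log2 ratio differed by at least 1 in either direction for 5 of the 19 (26.3%), and the median absolute difference was 0.48. The difference was 3.74 for miR-27-5p, 1.87 for miR-23-3p and 1.04 for miR-27-3p, and 0, 0 and 1 of the other pairs had a larger positive one. By absolute size, 0, 1 and 4 of them were larger. From day 0 to day 3 the difference was at least 1 in either direction for 11 of the 19 (57.9%), and 2 had a larger absolute difference than miR-27-5p (1.75), 11 than miR-23-3p (1.04) and 17 than miR-27-3p (0.03).

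**Figure D4:**
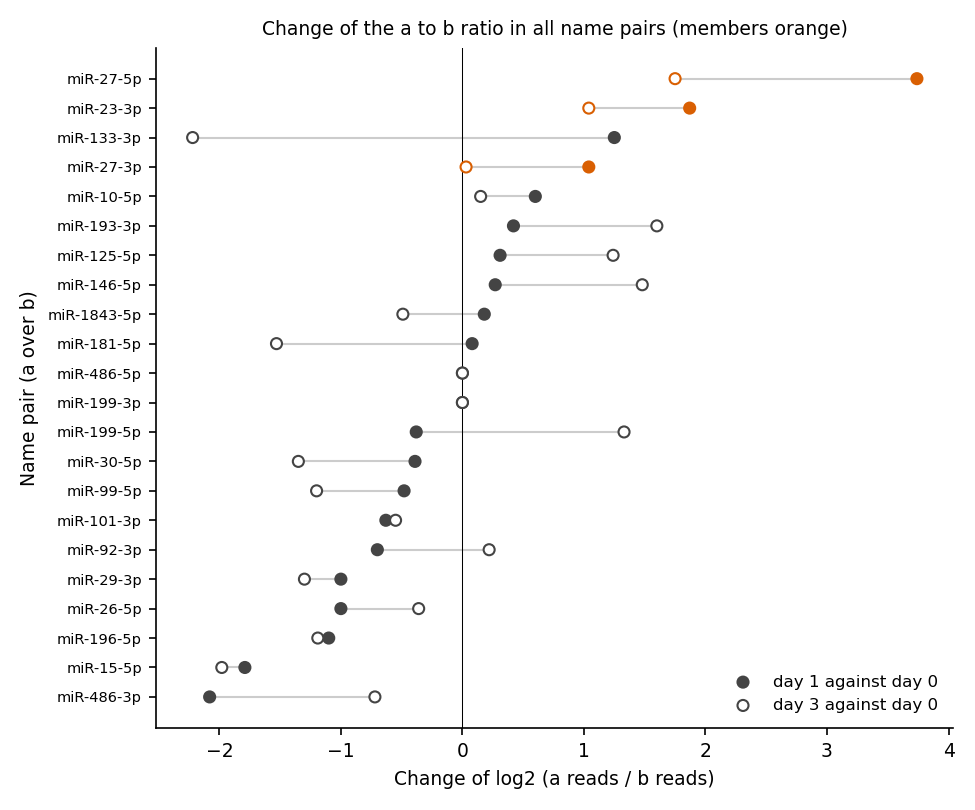
Change of the log2 ratio of a to b reads against day 0 for the 22 name pairs, with day 1 as filled and day 3 as open circles and the members in orange; each circle is a difference between single libraries. The member pairs lie at the upper end on day 1, with miR-27-5p at 3.74.

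The arms of a hairpin were not held in a fixed proportion. miR-27a-5p made up 0.799% of the reads of the miR-27a arms on day 0 (0.715 to 0.892), and its share was 3.35% (3.23 to 3.47) and 3.03% (2.90 to 3.17) afterwards. miR-27b-5p went the other way on day 1, with 2.30% (2.11 to 2.50), 1.54% (1.40 to 1.70) and 2.70% (2.53 to 2.87) on days 0, 1 and 3. On the log2 scale, the ratio of 5p to 3p reads differed from day 0 by 2.11 on day 1 and 1.96 on day 3 for miR-27a, and by -0.59 and 0.24 for miR-27b. A higher 5p share was not particular to the a cluster. For the b cluster hairpin miR-23b, whose 5p arm is not among the members, the differences were 0.88 and 2.00. Of 42 hairpins with at least 50 reads of both arms in every library, 39 were not from these clusters. Among these 39 the absolute log2 difference on day 1 was at least 1 for 28.2%, with a median of 0.68. On that day 0 of them had a larger positive difference than miR-27a and 2 had a larger absolute one, while the -0.59 of miR-27b was below the median in size. On day 3 the absolute difference was at least 1 for 38.5% of the 39, and 3 had a larger positive one than miR-27a.

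The 5p share of miR-23a was higher on both days than on day 0, and that of miR-24 was lowest on day 1. miR-23a-5p made up 0.0347% (0.0194 to 0.0620), 0.0798% (0.0653 to 0.0976) and 0.0923% (0.0751 to 0.114) of the miR-23a arms. The miR-24 5p arms together made up 2.85% (2.70 to 3.02), 2.20% (2.11 to 2.29) and 3.52% (3.41 to 3.64) of the miR-24 reads. The lowest miR-24 5p share was thus found on the day when miR-24-3p was most abundant. These shares depend on the unit, since the deposited expression values gave 3.55%, 3.36% and 5.35% for miR-24 and 0.0421%, 0.133% and 0.144% for miR-23a. For miR-27a they gave 1.00%, 4.84% and 4.00%, and for miR-27b 2.60%, 1.75% and 3.20%.

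**Figure D5:**
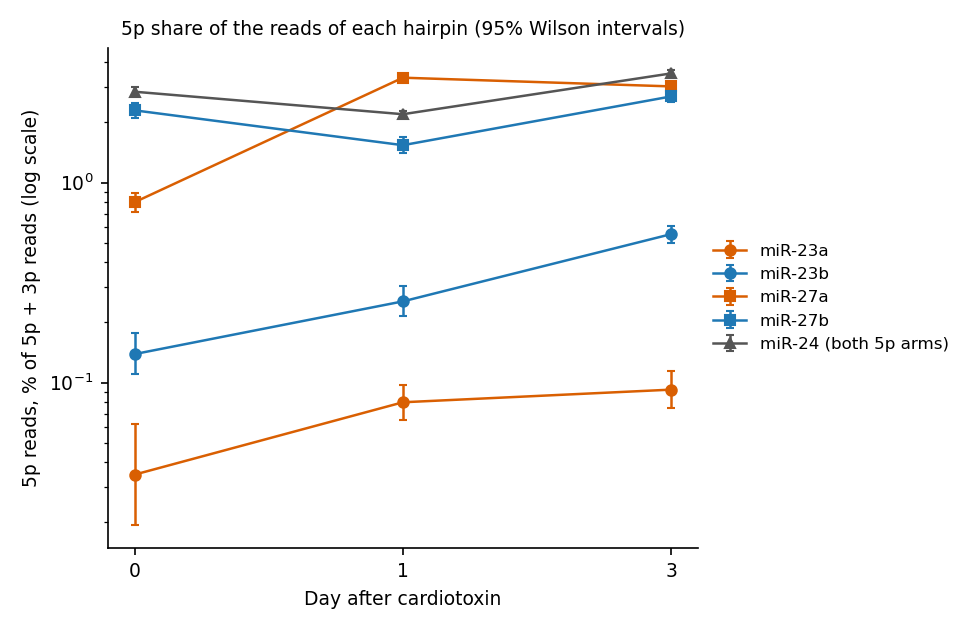
Share of 5p reads among the 5p and 3p reads of each hairpin (log axis, percent) in the library of each day, with 95% Wilson intervals; for miR-24 both 5p arms are summed over all miR-24 reads. The miR-27a share climbs from 0.799% to 3.35% between days 0 and 1 while the miR-27b share goes from 2.30% to 1.54%.

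Likeness to the members was measured over the 102 miRNAs with at least 1000 reads in every library, as the distance between their log2 changes on days 1 and 3, which share the day 0 library. The b cluster 3p arms were close to each other, at a distance of 0.0804 between miR-23b-3p and miR-27b-3p, and miR-29a-3p lay nearer still to miR-23b-3p at 0.0705. Nearest to miR-24-3p were miR-16-5p (0.114), miR-15a-5p (0.176) and the erythroid miR-451a (0.280). The a cluster 3p arms had no neighbour as close. miR-425-5p lay 0.480 from miR-23a-3p, with miR-340-5p and miR-16-5p next, and miR-10a-5p lay 0.290 from miR-27a-3p, with miR-192-5p and miR-350-3p next. The third neighbour of both miR-23b-3p and miR-27b-3p was miR-497a-5p.

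miRNAs that mark cell types also differed between the libraries, and in bulk muscle fewer cells of a type cannot be told apart from less RNA per cell. The background for the marker counts is the share of all miRNAs past 2-fold. From library totals this was 55.3% higher and 12.0% lower on day 1, and 58.5% and 10.0% on day 3. With TMM factors it was 35.2% and 24.2% on day 1, and 39.4% and 22.1% on day 3.

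The 2 endothelial markers, both strands of miR-126a, summed to 59427, 132923 and 58732 CPM on days 0, 1 and 3. From library totals 2 were at least 2-fold higher on day 1 and 0 were past 2-fold on day 3, whereas with TMM factors 0 were past 2-fold on day 1 and 1 was lower on day 3. The erythroid markers summed to 7142, 25326 and 12560 CPM, with 2 of 2 higher on day 1 and 0 past 2-fold on day 3 from library totals, and 0 on both days with TMM factors. The smooth muscle markers summed to 34909, 63760 and 25342 CPM, with 1 of 2 higher on day 1 and 0 past 2-fold on day 3 from library totals. With TMM factors 0 smooth muscle markers were past 2-fold on day 1 and 2 were lower on day 3. The calls for these vascular and blood markers thus depended on the scaling.

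Of the 5 myeloid and leukocyte markers, which summed to 4879, 18804 and 6528 CPM, 4 were at least 2-fold higher on each day, also with TMM factors. These 4 were both arms of miR-223 and both arms of miR-142a, and arms of 1 hairpin are not independent. The other, miR-150-5p, held 4733 CPM of the sum on day 0, and its log2 change on day 3 was -0.57 from library totals and -1.49 with TMM factors. The neutrophil and macrophage miRNA miR-223-3p stood at 97.8, 7815 and 1896 CPM and the pan-leukocyte miR-142a-3p at 25.2, 1684 and 816 CPM. The 3 stromal markers, both arms of miR-199a and miR-214-3p, summed to 2020, 3692 and 6244 CPM. From library totals 2 were higher on day 1 and 3 on day 3, and with TMM factors 1 was higher on each day. The 6 myofiber markers summed to 273397, 91274 and 277162 CPM. On day 1, 5 of these were at least 2-fold lower (6 with TMM factors). On day 3, 3 were lower and 2 higher (3 and 1 with TMM factors), and the sum was mostly miR-206-3p at 180001 CPM. None of the markers was at 0 reads in any library, but miR-208b-3p had only 4, 1 and 10 reads on days 0, 1 and 3. It was counted among the lower myofiber markers on day 1, where it missed the minimum of 10 reads used for the background. From library totals it was also 1 of the 2 higher ones on day 3. The endothelial, erythroid, smooth muscle and myeloid sums were highest on day 1 in CPM, as were the 3p arms of both clusters, and their part in the levels of the members was not tested.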

How the data were processed

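TA muscle small RNA libraries of days 0, 1 and 3 after CTX injury were analysed, 1 library of 4 pooled samples per day. The authors sequenced them on the BGISEQ platform, and the submitters' processing notes name GRCm38.p6, HISAT and Bowtie2. The authors deposited a raw read count per mature miRNA and, separately, an expression value, handled as a score because how the authors made it is not given in the sources used here. For the 5p arms of the members this value was 97.2% to 100% of the reads. It was compared between libraries without division by a total unless stated, so library depth enters those changes. Counts were divided by the library total (CPM). With 1 library per day no replicate test was possible, so no p-values are given, and a miRNA was counted when its CPM ratio reached a fold change of 2. Intervals are Wilson (shares) or Wald (log2 ratios) at 95%. A miRNA at 0 reads in a library was set to 3 reads in counts over all miRNAs. Named miRNAs were the 10 members, other products of their loci, the 3 nearest miRNAs of each abundant 3p arm and the marker lists. The members and lists were chosen with earlier results of these data known. The marker counts under TMM scaling were added after the values were seen. Scalings, the expression values, a pseudocount of 1 CPM, read minimums, a fold change of 4 and subsampling to 6421056 reads were tried as alternatives. The calculation of log2 changes was tested on simulated data. Scaling factors came from DESeq2 1.42.0 and edgeR 4.0.16 in R 4.3.3, tables from pandas 2.3.3 with scipy 1.17.1 and numpy 2.4.6, and plots from matplotlib 3.10.9, under Python 3.11.15.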

Additional observations from a re-analysis of the deposited data

Results flagged for a closer look

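From library totals, miR-27b-5p was the member whose log2 change against day 0 had opposite signs on the days after injury, -0.07 on day 1 and 0.63 on day 3. The difference was not tested, each value compares single libraries, and the interval on day 1 (-0.26 to 0.12) includes 0. With TMM factors both values were negative, at -1.02 and -0.30, and after subsampling the value on day 1 was 0.01. The signs stayed opposite without the 10 most abundant miRNAs (-0.69 and 0.12), in the deposited expression values (-0.46 and 0.83) and once those values were divided by their total (-0.68 and 0.32). Which other members had opposite signs on these days changed with the scaling. miR-27a-3p did with TMM factors, under median-of-ratios scaling and without the 10 most abundant miRNAs, and miR-24-3p did under median-of-ratios scaling. miR-24-1-5p did without the 10 most abundant miRNAs and in the deposited expression values, and miR-27a-3p, miR-27b-3p and miR-24-1-5p did once those values were divided by their total.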

How the results depend on the processing

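No paired analysis was possible because each day has 1 library. The count of members past 2-fold on day 1, 6 from library totals, was 3 with a threshold of 4-fold and 3 when the expression column was divided by its total, an alternative added after the values were seen. On day 3 the count of 5 became 2 with TMM factors, 2 under median-of-ratios scaling, 2 without the 10 most abundant miRNAs, 2 with a threshold of 4-fold and 3 with scaled expression values. Between days 3 and 1 the count of 2 lower members became 0 with 4-fold, and it turned to 2 higher and 0 lower in the deposited expression values and to 1 higher and 0 lower after these were scaled. With median-of-ratios factors, the log2 change of miR-24-3p on day 3 was -0.04 against 1.07. In the deposited expression values, which lie below the reads for abundant miRNAs (59.4% to 87.9% of them for the 3p arms), the log2 a to b ratio of miR-23-3p was -0.48, 0.89 and 0.30 on days 0, 1 and 3 and that of miR-27-3p was 0.65, 1.43 and 0.63. The order of days was kept for miR-23-3p, and for miR-27-3p day 1 remained highest. Of the 15 shares of 5p reads, 14 lay outside their intervals in the deposited expression values. The 15 ratios stayed within their intervals with a pseudocount of 1 CPM and after subsampling. With a minimum of 1 read, the shares of all miRNAs past 2-fold were 36.3% higher and 8.02% lower on day 1, 36.8% and 7.29% on day 3, and 15.9% and 13.0% from day 1 to day 3. Depth limits miR-23a-5p most, with 11 reads on day 0.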

Other observations

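Other products of the same loci were listed beside the members. miR-23b-5p, the 5p arm of the b cluster hairpin Mir23b, had 67, 126 and 395 reads on days 0, 1 and 3, or 7.88 CPM (6.20 to 10.0), 19.6 CPM (16.5 to 23.4) and 40.3 CPM (36.5 to 44.5). It was highest on day 3, unlike miR-23b-3p, and its share of the reads of both arms was 0.139%, 0.255% and 0.553% on days 0, 1 and 3. The ratio of miR-23a-5p to miR-23b-5p was 0.164 (0.0868 to 0.311), 0.754 (0.578 to 0.984) and 0.225 (0.179 to 0.284), so the b cluster arm held most reads in each library and the ratio was again highest on day 1.

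The hairpins Mir3074-2 and Mir3074-1 lie on the minus strand opposite Mir24-2 and Mir24-1. All 20 bases of miR-3074-2-3p are complementary to a run of miR-24-2-5p, so the reads of these miRNAs can be told apart only if strand was used in counting, which is not given in the sources used here. miR-3074-2-3p had 743, 1173 and 1356 reads on days 0, 1 and 3, which was 0.671, 0.530 and 0.393 of the reads of miR-24-2-5p. The other products were near the detection limit, with 8, 14 and 19 reads for miR-3074-1-3p and 2, 5 and 10 for miR-3074-5p.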
